A study of Mus musculus with 6 samples.

Results

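The genes described are 43 genes of antioxidant defence and the NRF2 pathway, followed in RNA-seq of macrophages that were drawn into the mouse peritoneal cavity. They were taken by symbol from a list that names the enzymes which remove superoxide and peroxides, the thioredoxin and glutathione systems, the enzymes that supply NADPH, the metallothioneins, the sestrins, and the transcription factors NRF1, NRF2 and NRF3 with their partners KEAP1 and MAFG. All 43 were found among the 54648 gene symbols of the deposited table, and all 43 were among the 15608 genes that passed the filter on low counts. The 6 libraries came from 3 wild-type (WT) mice and 3 FOXO3 knockout (FOXO3 KO) mice, all of the C57BL/6 strain, 6 to 8 weeks old and fed standard chow. Every mouse had been injected with thioglycollate, an irritant that brings monocytes into the abdomen, where they mature into macrophages, and RNA was taken from the pelleted peritoneal cells without a sorting step in the methods. The knockout was homozygous and not restricted to macrophages by any label, the mice of the study were littermates of both sexes, and each label names a single genotype with no further treatment. The question was how loss of FOXO3 alters transcription in macrophages.

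Macrophages make superoxide and hydrogen peroxide when they engulf particles, and they depend on antioxidant enzymes to survive their own oxidants. NRF2, encoded by Nfe2l2, is held in the cytoplasm and sent to degradation by KEAP1 until oxidants or electrophiles modify KEAP1. NRF2 then enters the nucleus, pairs with a small MAF protein such as MAFG, and binds antioxidant response elements beside the genes of glutathione, thioredoxin and NADPH metabolism. FOXO3 is a separate transcription factor, known for inducing Sod2, Cat, Txnip and the sestrins in other cell types.

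Foxo3 itself was measured at 117, 107 and 73.1 CPM (counts scaled to a common library size) in WT 1, 2 and 3, and at 4.71, 104 and 4.29 CPM in the libraries labelled FOXO3 KO 1, 2 and 3. The library labelled FOXO3 KO 2 thus held Foxo3 at the WT level, against its label. Results are given with all 6 libraries, and the main counts and many of the named genes are given again without it. WT 3 stood apart as well, with a summed level of 8 B cell markers of 3681 CPM against 202 to 836 CPM in the other libraries, and of 8 mast cell markers of 825 CPM against 107 to 304 CPM. Xist, the transcript that coats the inactive X chromosome in female cells, was at 871 CPM in WT 3, at 1130 CPM in the library labelled FOXO3 KO 3 and under 0.2 CPM in the other 4. The 12 macrophage markers, Adgre1, Csf1r and Lyz2 among them, summed to between 15109 and 19857 CPM in every library. Library totals were between 28083393 and 36424117 counts. Nothing states how the 3 mice of a group were related beyond littermates, so p-values measure the spread between these samples.

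With all 6 libraries, none of the 43 members reached a fold change over 1.5 at a false discovery rate (FDR) under 0.05 by edgeR's quasi-likelihood test. The same test called 0% of all genes tested, with or without the library labelled FOXO3 KO 2, and the smallest FDR of a member was 0.714 by this test, for Nfe2l3. Foxo3 itself was not called by it, with an FDR of 0.859 with all 6 libraries. Without the library labelled FOXO3 KO 2 the FDR of Foxo3 was 0.105, at a log2 fold change of -4.46. The lack of calls by this test thus does not show that the members were unchanged. Before adjustment, 6 of the 43 (14.0%) had p under 0.05, against 5.68% of all genes tested. The 4 that were higher in FOXO3 KO were Sod2, Sod3, Nfe2l3 and Mafg, where 4.04% of all genes were higher at that level, and the 2 that were lower were Sod1 and Sesn1, where 1.65% were. Without the library labelled FOXO3 KO 2, 2 members (4.65%) were at that level, Nfe2l3 and Sesn1, against 4.3% of all genes, and without WT 3 there were 8 (18.6%), against 8.41%. At a fold change over 1.5 and unadjusted p under 0.05 there were 2 members, Nfe2l3 and Sod3, where 4.28% of all genes met the same limits. Under that rule Nfe2l3 alone remained without the library labelled FOXO3 KO 2, against 3.61% of all genes. At fold change over 1.5 and FDR under 0.05, DESeq2 called 1 member, Nfe2l3, and 0.529% of the 31378 genes it tested. DESeq2 was run without the filter on low counts, so its shares are not on the same footing as those of edgeR. The likelihood ratio test of edgeR called the same member and 0.698% of 15608 genes. DESeq2 without the library labelled FOXO3 KO 2 called it with 0.337% of 30833 genes.

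The groups did not overlap for 11 members (25.6%), against 12.4% of all genes tested. In 8 of them (18.6%) every FOXO3 KO library lay above every WT library, against 7% of all genes, namely Sod2, Sod3, Nfe2l3, Mafg, Gclm, Nqo1, Mt2 and Sesn2. In 3 of them (6.98%) every FOXO3 KO library lay below, against 5.36%, namely Sod1, Txnrd2 and Sesn1. Without the library labelled FOXO3 KO 2 there were 9 higher and 4 lower, or 30.2% against 20.3% of all genes (11% higher and 9.23% lower), and without WT 3 there were 10 higher and 4 lower, or 32.6% against 25.4% (13.5% higher and 11.9% lower). The median log2 fold change over the 43 members was 0.10 with 30 higher and 13 lower, beside -0.0073 over all genes. Leaving out the library labelled FOXO3 KO 2 gave a median of 0.09, with 26 members higher and 17 lower. Leaving out WT 3 gave -0.0022, with 21 members higher and 22 lower.

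**Figure D1:**
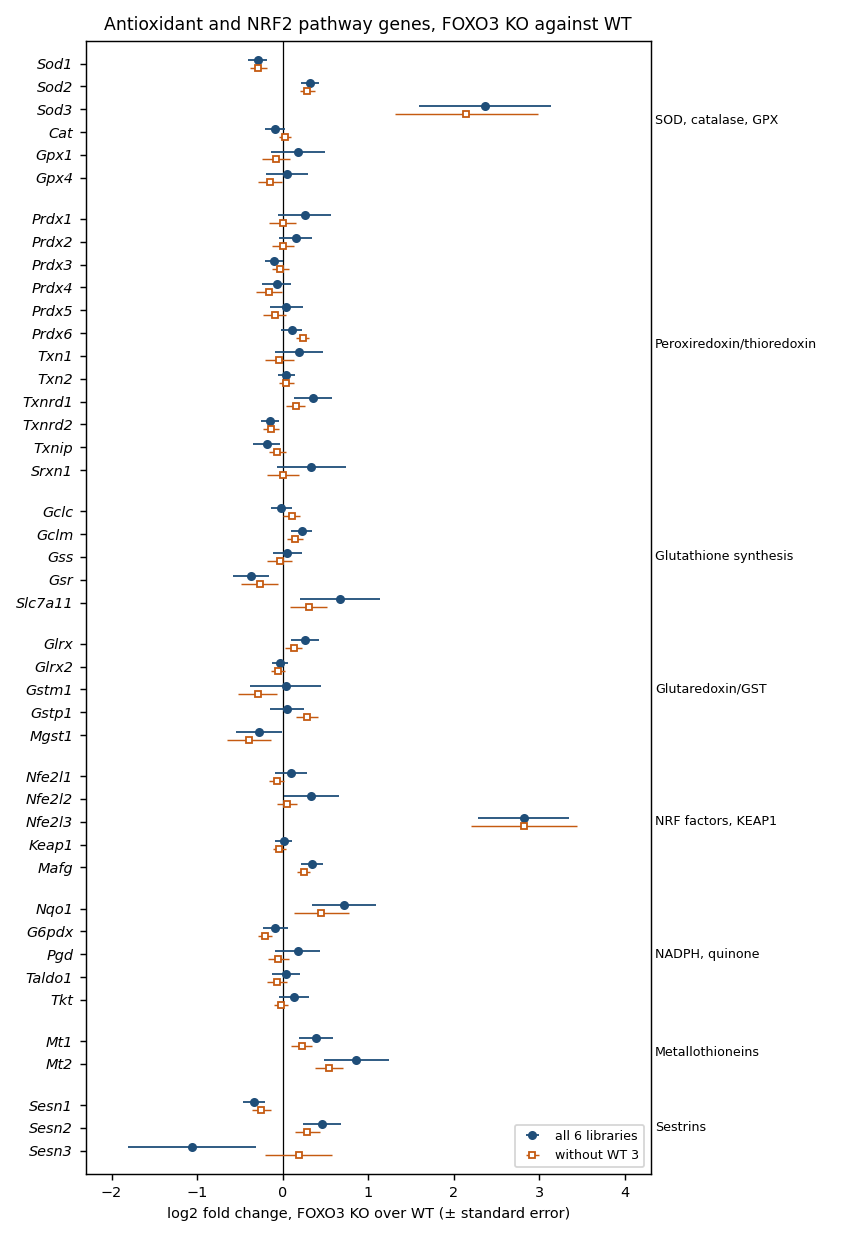
Log2 fold change of each member, FOXO3 KO over WT, with its standard error, ordered by role. Filled circles use all 6 libraries and open squares leave out WT 3. Most members lie close to 0, Nfe2l3 (2.82) and Sod3 (2.37) stand far to the right, and Sesn3 moves from -1.06 to 0.19 when WT 3 is left out.

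The factors that control the pathway were not alike. Nfe2l3, which encodes NRF3, a relative of NRF2 held at the endoplasmic reticulum, was measured at 0.665, 0.318 and 0.503 CPM in the WT libraries and at 1.88, 5.80 and 2.94 CPM in the libraries labelled FOXO3 KO 1, 2 and 3. All 3 FOXO3 KO libraries were above all 3 WT libraries, and the highest was the library labelled FOXO3 KO 2. The log2 fold change was 2.82 (SE 0.53, unadjusted p = 0.0016), and without that library it was 2.27 (SE 0.44, unadjusted p = 0.0031). The adjusted p of Nfe2l3 was 2.9e-04 in DESeq2 with all libraries and 0.0061 in DESeq2 without the library labelled FOXO3 KO 2. Nfe2l3 is one of the genes the study selected on these samples and measured by qPCR, so its direction here is not independent evidence. The level was low, and the 8 fibroblast markers were ordered as Nfe2l3 was among the FOXO3 KO libraries, with summed levels of 93.9, 484 and 170 CPM in the libraries labelled FOXO3 KO 1, 2 and 3 and 41.4 to 76.4 CPM in WT. The 8 mesothelial markers summed to 13.1, 44.3 and 19.0 CPM in the same 3 libraries and to 6.21 to 13.5 CPM in WT. Each of these markers had a count in at least 1 library, and 6 of the 8 fibroblast and 7 of the 8 mesothelial markers were tested. Their part in the level of Nfe2l3 was not tested. In RNA from whole cell pellets, fewer cells of a type and less RNA per cell cannot be told apart.

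Mafg, the small MAF partner of NRF2, was at 83.5, 91.3 and 68.6 CPM in WT 1, 2 and 3. It was at 104, 102 and 102 CPM in the libraries labelled FOXO3 KO 1, 2 and 3, a narrow band above the whole WT range. Mafg had a log2 fold change of 0.34 (SE 0.13, unadjusted p = 0.033), 0.35 without the library labelled FOXO3 KO 2 (unadjusted p = 0.083) and 0.25 without WT 3 (unadjusted p = 0.015). With all libraries, Mafg was not at unadjusted p under 0.05 by edgeR's likelihood ratio test or in DESeq2 (unadjusted p = 0.051). Nfe2l2 was at 305, 361 and 146 CPM in WT and at 368, 346 and 311 CPM in the FOXO3 KO libraries. The groups overlapped only through WT 2, while WT 1 lay just below the lowest FOXO3 KO library and WT 3 far below it. The log2 fold change of Nfe2l2 was 0.34 (SE 0.33, unadjusted p = 0.34), and 0.05 (SE 0.11) without WT 3. Nfe2l1, which encodes NRF1, the factor that induces proteasome genes, had a log2 fold change of 0.10 (SE 0.19), from 131 to 207 CPM in WT and 176 to 198 CPM in FOXO3 KO. Keap1, the inhibitor of NRF2, was the steadiest of the 5, with 57.8 to 67.5 CPM in WT and 62.0 to 67.2 CPM in FOXO3 KO, and a log2 fold change of 0.01 (SE 0.10).

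**Figure D2:**
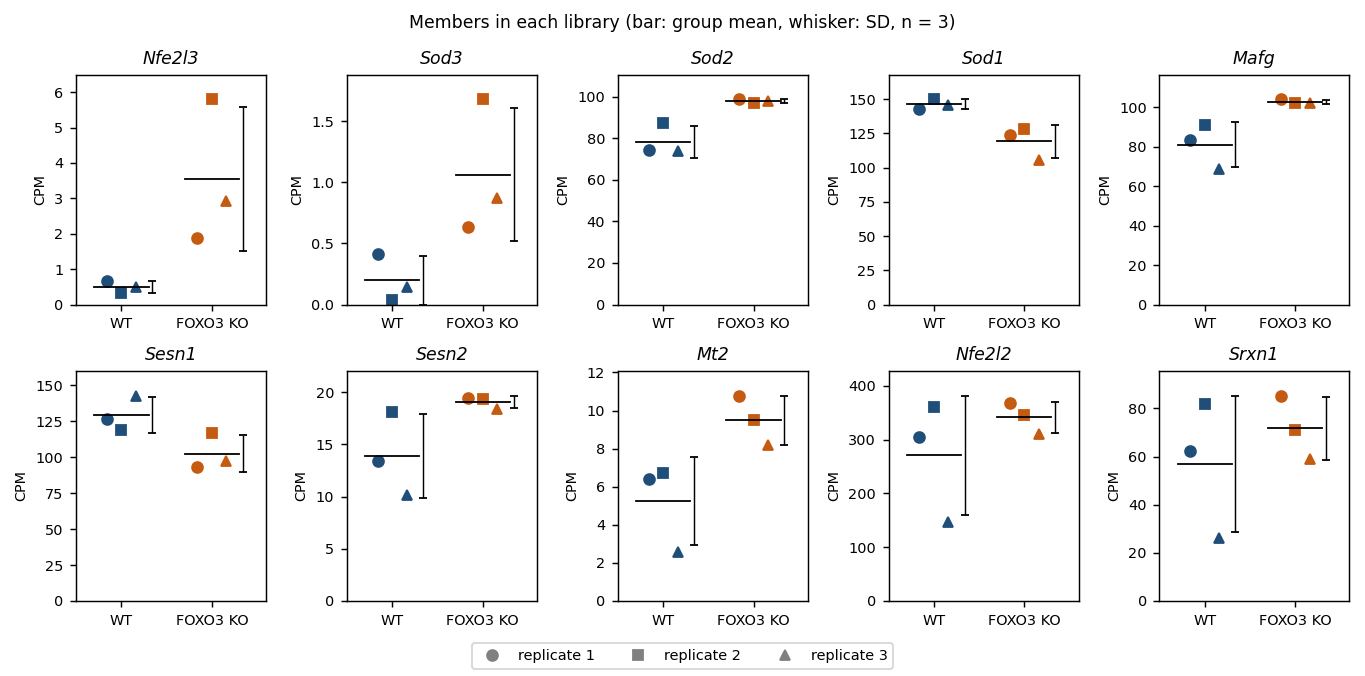
CPM in each library for 10 members, WT in blue and FOXO3 KO in orange, with a symbol for each replicate number, a bar at the group mean and a whisker for the SD (n = 3). The groups do not overlap in the first 8 panels, and in Nfe2l2 and Srxn1 WT 3 (the blue triangle) lies below every other library.

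The superoxide dismutases, which turn superoxide into hydrogen peroxide, went in different directions. Sod2, the mitochondrial manganese enzyme, was at 74.1, 87.3 and 73.8 CPM in WT and at 98.7, 96.7 and 97.9 CPM in FOXO3 KO, or 78.4 ± 7.7 against 97.8 ± 0.98 CPM (SD, n = 3). Sod1, the cytosolic copper and zinc enzyme, was at 143, 150 and 146 CPM in WT and at 124, 128 and 105 CPM in FOXO3 KO, or 146 ± 3.4 against 119 ± 12 CPM (SD, n = 3). Neither pair of groups overlapped, with Sod2 higher and Sod1 lower in FOXO3 KO. The log2 fold change was 0.32 for Sod2 (SE 0.10, unadjusted p = 0.020) and -0.29 for Sod1 (SE 0.11, unadjusted p = 0.035). Without the library labelled FOXO3 KO 2 the values were 0.33 (unadjusted p = 0.059) and -0.35 (unadjusted p = 0.051), and without WT 3 they were 0.29 (unadjusted p = 0.018) and -0.29 (unadjusted p = 0.029). With all libraries, neither gene was at unadjusted p under 0.05 by edgeR's likelihood ratio test. Sod1 was also not at that level without the filter on low counts or with the replicate number as a block.

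Within a library, where scaling of the library size has no part, counts of Sod2 were 0.518, 0.582 and 0.506 of those of Sod1 in WT 1, 2 and 3. They were 0.795, 0.754 and 0.928 of those of Sod1 in the libraries labelled FOXO3 KO 1, 2 and 3, so that all 3 were above WT. This ratio was chosen after the values of both genes had been seen, and since neither gene overlapped between the groups its direction was fixed, so it is given as a description with no test.

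Sod3, the secreted dismutase, was barely detected, with 15, 1 and 5 counts in WT and 18, 46 and 29 counts in FOXO3 KO, or 0.415, 0.0353 and 0.140 CPM against 0.638, 1.68 and 0.869 CPM. The groups did not overlap, and the library labelled FOXO3 KO 2 was again the highest. The log2 fold change was 2.37 (SE 0.77, unadjusted p = 0.021) with all libraries and 1.88 (SE 0.82, unadjusted p = 0.069) without that library, in which the fibroblast and mesothelial markers were highest too. Their part in the level of Sod3 was not tested.

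Among the enzymes that remove hydrogen peroxide or lipid peroxides, the groups overlapped in Cat, Gpx1 and Gpx4. Cat, catalase, was at 114, 111 and 140 CPM in WT and at 113, 119 and 111 CPM in FOXO3 KO, overlapping groups with a log2 fold change of -0.09 (SE 0.12). Gpx1, the cytosolic glutathione peroxidase, had the highest level per length of all members, with a mean in WT of 737 CPM per kilobase of exon. It was at 1096, 1457 and 634 CPM in WT and at 1311, 1210 and 1082 CPM in FOXO3 KO, so that WT 3 was the lowest and WT 2 the highest. Its log2 fold change was 0.18 (SE 0.32), and -0.08 (SE 0.16) without WT 3. Gpx4, which reduces lipid peroxides in membranes, had a log2 fold change of 0.05 (SE 0.25).

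The 12 genes of the peroxiredoxin and thioredoxin system held log2 fold changes between -0.19 and 0.35, and none had an unadjusted p under 0.05 with all libraries. Prdx1, the most abundant peroxiredoxin per length at 164 CPM per kilobase of exon in WT, was at 522, 683 and 294 CPM in WT and at 627, 648 and 517 CPM in FOXO3 KO. Srxn1, sulfiredoxin, which restores over-oxidised peroxiredoxins, was at 62.4, 81.9 and 26.2 CPM in WT and at 85.3, 70.9 and 58.9 CPM in FOXO3 KO. Txnrd1, the cytosolic thioredoxin reductase, was at 107, 130 and 70.6 CPM in WT and at 142, 125 and 125 CPM in FOXO3 KO. In all 3 genes WT 3 was the lowest library and the other libraries of the groups overlapped. Their log2 fold changes were 0.26 (SE 0.31), 0.34 (SE 0.40) and 0.35 (SE 0.22), and without WT 3 they were -0.0022 (SE 0.16), 0.0023 (SE 0.18) and 0.15 (SE 0.11).

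Txnip, which binds and inhibits thioredoxin, was at 675, 611 and 802 CPM in WT and at 579, 625 and 631 CPM in FOXO3 KO, with a log2 fold change of -0.19 (SE 0.16) and overlapping groups. Prdx5, a peroxiredoxin of mitochondria and peroxisomes, was at 212, 252 and 164 CPM in WT and at 201, 250 and 195 CPM in FOXO3 KO, with a log2 fold change of 0.04 (SE 0.19). Txnrd2, the mitochondrial thioredoxin reductase, was the one gene of the 12 whose groups did not overlap. It was at 18.9, 19.1 and 19.2 CPM in WT and at 17.6, 16.2 and 17.7 CPM in FOXO3 KO, with a log2 fold change of -0.15 (SE 0.10, unadjusted p = 0.19). Prdx2, Prdx3, Prdx4, Prdx6, Txn1 and Txn2 overlapped between the groups. Of these, Prdx6, a peroxiredoxin that also acts on phospholipids, had a log2 fold change of 0.24 (unadjusted p = 0.019) without WT 3, against 0.10 (unadjusted p = 0.44) with it.

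In glutathione synthesis, Gclm, the regulatory subunit of the rate-limiting ligase, was at 26.3, 26.8 and 21.8 CPM in WT and at 31.6, 28.5 and 27.2 CPM in FOXO3 KO. Every FOXO3 KO library was above WT, by a log2 fold change of 0.22 (SE 0.12, unadjusted p = 0.12). For Gclm it was 0.24 (unadjusted p = 0.20) without the library labelled FOXO3 KO 2 and 0.14 (unadjusted p = 0.19) without WT 3. Gclc, the catalytic subunit of the same enzyme, was at -0.02 (SE 0.13), with WT 3 its highest library at 38.6 CPM. Slc7a11, the cystine transporter xCT, was at 7.17, 9.14 and 2.46 CPM in WT and at 12.2, 9.20 and 8.48 CPM in FOXO3 KO, with overlapping groups. The log2 fold change of Slc7a11 was 0.67 (SE 0.47, unadjusted p = 0.20), and 0.30 (unadjusted p = 0.20) without WT 3. Gsr, glutathione reductase, was at 76.9, 108 and 110 CPM in WT and at 78.6, 91.0 and 58.3 CPM in FOXO3 KO, and its log2 fold change was -0.37 (SE 0.21, unadjusted p = 0.13). Gss, glutathione synthetase, was at 0.05 (SE 0.17).

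Among the glutaredoxins and glutathione transferases, Mgst1, a membrane transferase and peroxidase, was at 117, 138 and 93.7 CPM in WT and at 89.3, 131 and 68.5 CPM in the libraries labelled FOXO3 KO 1, 2 and 3. The library labelled FOXO3 KO 2 lay within the WT range and the other two lay below it. The log2 fold change was -0.27 (SE 0.27, unadjusted p = 0.35) with all libraries and -0.56 (SE 0.23, unadjusted p = 0.056) without that library. Glrx, glutaredoxin, was the member that overlapped with all libraries and was higher in FOXO3 KO without the library labelled FOXO3 KO 2, at 44.5 and 43.4 CPM against 28 to 42.4 CPM in WT, with a log2 fold change of 0.31 (unadjusted p = 0.18). Glrx2, Gstm1 and Gstp1 had log2 fold changes of -0.03, 0.03 and 0.05. Gstm1 and Gstp1 have near-identical relatives, and their estimated counts depend on how reads were shared among them.

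Of the enzymes that supply or use NADPH, Nqo1, the quinone reductase often used as a readout of NRF2, was at 0.748, 0.988 and 0.419 CPM in WT and at 1.38, 1.13 and 1.02 CPM in FOXO3 KO. It was low in every library, and each FOXO3 KO library was above WT, narrowly so for the lowest. The log2 fold change was 0.72 (SE 0.38, unadjusted p = 0.10), and 0.45 (unadjusted p = 0.20) without WT 3. G6pdx, the first enzyme of the pentose phosphate pathway, was at 177, 191 and 137 CPM in WT and at 161, 167 and 149 CPM in FOXO3 KO, with a log2 fold change of -0.09 (SE 0.15). Without WT 3 it was -0.20 (SE 0.083, unadjusted p = 0.047), with all FOXO3 KO libraries below WT 1 and WT 2. Pgd, Taldo1 and Tkt, the later enzymes of that pathway, were between 0.04 and 0.17 with all libraries.

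The metallothioneins, small cysteine-rich proteins that bind zinc and copper and scavenge radicals, were both higher on average in FOXO3 KO. Mt2 was at 6.43, 6.70 and 2.57 CPM in WT and at 10.8, 9.52 and 8.18 CPM in FOXO3 KO, without overlap. Mt1 was at 40.9, 47.8 and 28.6 CPM in WT and at 57.2, 50.6 and 46.1 CPM in FOXO3 KO, where the lowest FOXO3 KO library lay below WT 2. The log2 fold changes were 0.86 for Mt2 (SE 0.38, unadjusted p = 0.062) and 0.39 for Mt1 (SE 0.20, unadjusted p = 0.098). Without the library labelled FOXO3 KO 2 they were 0.86 (unadjusted p = 0.12) and 0.40 (unadjusted p = 0.17). Without WT 3, in which both were lowest, they were 0.54 (unadjusted p = 0.017) and 0.22 (unadjusted p = 0.12). A list of their partners in the metal response, which also holds the oxygen-regulated factor Hif1a, had 7 genes tested. Of these, 5 were higher and 2 lower in FOXO3 KO, with 0 past the FDR limit of edgeR's quasi-likelihood test. At unadjusted p under 0.05 there were 2, Hif1a and Mt3, both higher, where 5.68% of all genes tested were at that level. Hif1a, the oxygen-regulated factor, was named after its values had been seen. It was at 157, 174 and 155 CPM in WT and at 201, 196 and 215 CPM in FOXO3 KO, without overlap. Its log2 fold change was 0.33 (SE 0.10, unadjusted p = 0.017), 0.36 (unadjusted p = 0.045) without the library labelled FOXO3 KO 2 and 0.31 (unadjusted p = 0.0094) without WT 3. Mt3, the third metallothionein, was at 0.112 to 0.635 CPM in WT and at 1.03, 1.75 and 0.869 CPM in the libraries labelled FOXO3 KO 1, 2 and 3. It was highest in the library labelled FOXO3 KO 2, as the fibroblast markers were. Its log2 fold change of 1.55 (SE 0.63, unadjusted p = 0.046) was 1.20 (unadjusted p = 0.14) without that library. Slc39a14, a zinc and iron importer, was at 16.4 to 20.2 CPM in WT and at 27.2, 19.0 and 32.9 CPM in the libraries labelled FOXO3 KO 1, 2 and 3, with a log2 fold change of 0.48 (unadjusted p = 0.069), and of 0.67 (unadjusted p = 0.010) without the second of these. Of the marker lists, 8 red blood cell markers were high in the same 2 libraries. Their summed levels were 118, 9.41 and 183 CPM in the libraries labelled FOXO3 KO 1, 2 and 3, and 9.81 to 27.2 CPM in WT. All 5 of them that were tested had unadjusted p under 0.05 without the second, against 4.3% of all genes tested. The 14 neutrophil markers summed to 676, 416 and 643 CPM in those libraries and to 327 to 593 CPM in WT, and 3 of the 9 tested were at that level, all higher. The sum of 593 CPM was that of WT 3, although WT 3 was the lowest library for 8 of the 9 tested and the highest for 1. The part of these cells in the levels of Slc39a14, Hif1a and the members was not tested.

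The sestrins, stress-induced proteins that restrain mTORC1 and limit peroxides, differed from each other. Sesn1 was at 127, 119 and 143 CPM in WT and at 93.3, 117 and 97.6 CPM in the libraries labelled FOXO3 KO 1, 2 and 3. All 3 were below WT. The library labelled FOXO3 KO 2 was the closest to it, and lay above WT 2 where library sizes were not scaled. Sesn1 had a log2 fold change of -0.34 (SE 0.13, unadjusted p = 0.041), and -0.44 (SE 0.14, unadjusted p = 0.024) without that library. Without WT 3 it was -0.25 (unadjusted p = 0.065). With all libraries, Sesn1 was also at unadjusted p under 0.05 in DESeq2. It was not at that level by edgeR's likelihood ratio test, with unscaled library sizes, without the filter on low counts, or with the replicate number as a block. Sesn1 lies on chromosome 10, as the targeted gene Foxo3 does. Loss of FOXO3 and an effect of the altered locus on a gene of the same chromosome cannot be told apart here. Sesn2 was at 13.4, 18.1 and 10.1 CPM in WT and at 19.5, 19.4 and 18.3 CPM in FOXO3 KO, higher without overlap. The log2 fold change of Sesn2 was 0.46 (SE 0.22, unadjusted p = 0.079). It was 0.45 (unadjusted p = 0.16) without the library labelled FOXO3 KO 2 and 0.29 (unadjusted p = 0.090) without WT 3. Sesn3 was at 31.5, 19.4 and 130 CPM in WT and at 15.7, 32.2 and 38.7 CPM in FOXO3 KO, and its log2 fold change of -1.06 (SE 0.75, unadjusted p = 0.20) rested on WT 3, without which it was 0.19 (SE 0.39).

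Of the 10 members that are known targets of FoxO factors, 4 were higher and 6 lower in the knockout group and the median log2 fold change was -0.10, while without WT 3 there were 5 of each and the median was 0.0012. Leaving out the library labelled FOXO3 KO 2 gave 3 higher and 7 lower. With all libraries, 2 of the 10 had an unadjusted p under 0.05, Sod2 in the upward and Sesn1 in the downward direction, beside 4.04% of all genes upward and 1.65% downward. FoxO binding letters GTAAACA were searched on both strands of the RefSeq promoters of GRCm38.p6, each running from 250 bases before to 50 bases after a gene's start. The promoters of 39 members were in that table, all but Prdx6, Gsr, Gclc and Sod3, and the letters stood in 4 of their 56 promoters (7.14%), those of Glrx2, Sesn1, Slc7a11 and Txnip, and in 3.65% of all 32851 promoters. For 3 of the 4, the stretch is given 5′ to 3′ on the gene's strand, with the match in capitals (TGTTTAC is the same motif read on the other strand). Of these 3 genes, Sesn1 was lower in FOXO3 KO without overlap. The groups of Txnip and Slc7a11 overlapped, so no direction is read from them. The Txnip stretch is chr3:96557816-96557862 on the plus strand, and its match begins 121 bases before the start. The Slc7a11 stretch is chr3:50443821-50443863 on the minus strand, and its match begins 232 bases before the start. The Sesn1 stretch is chr10:41810586-41810612 on the plus strand, and its match begins 23 bases after the start.
Txnip: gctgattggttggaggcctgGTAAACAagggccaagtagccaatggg
Slc7a11: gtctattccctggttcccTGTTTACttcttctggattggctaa
Sesn1: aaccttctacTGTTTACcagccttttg

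The members varied most among libraries through WT 3. WT 3 was the lowest of the 6 libraries for 26 of the 43 members (60.5%), against 37.5% of all genes tested. Taking for each member log2(CPM + 0.5) less its mean over the 6 libraries, the median over members was -0.36 in WT 3 and between -0.02 and 0.15 in the other 5. For the 15 members that are known NRF2 targets the median was -0.62 in WT 3, which was the lowest library for 12 of them. For the other 3, Gsr, Gclc and Gstp1, it was the highest.

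The 12 macrophage markers had a median of -0.29 in WT 3 by the same measure, but they were split. WT 3 was the lowest library for 8 of them and the highest for 4. The summed B cell and mast cell markers were highest in WT 3. The part of these cells in the levels of WT 3 was not tested. Among genes of the same role WT 3 was the lowest library for all 5 of the NADPH and quinone genes, both metallothioneins, 4 of the 5 factors and 6 of the 12 peroxiredoxin and thioredoxin genes. It was the highest library for 6 of the 10 FoxO targets and the lowest for 3. Of all genes tested, 37.2% were highest in WT 3 and 37.5% lowest. With WT 3, 12 of the 15 NRF2 targets were higher in FOXO3 KO and 3 lower, and their median log2 fold change was 0.17. Without WT 3, 7 were higher and 8 lower, and the median was -0.0022.

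**Figure D3:**
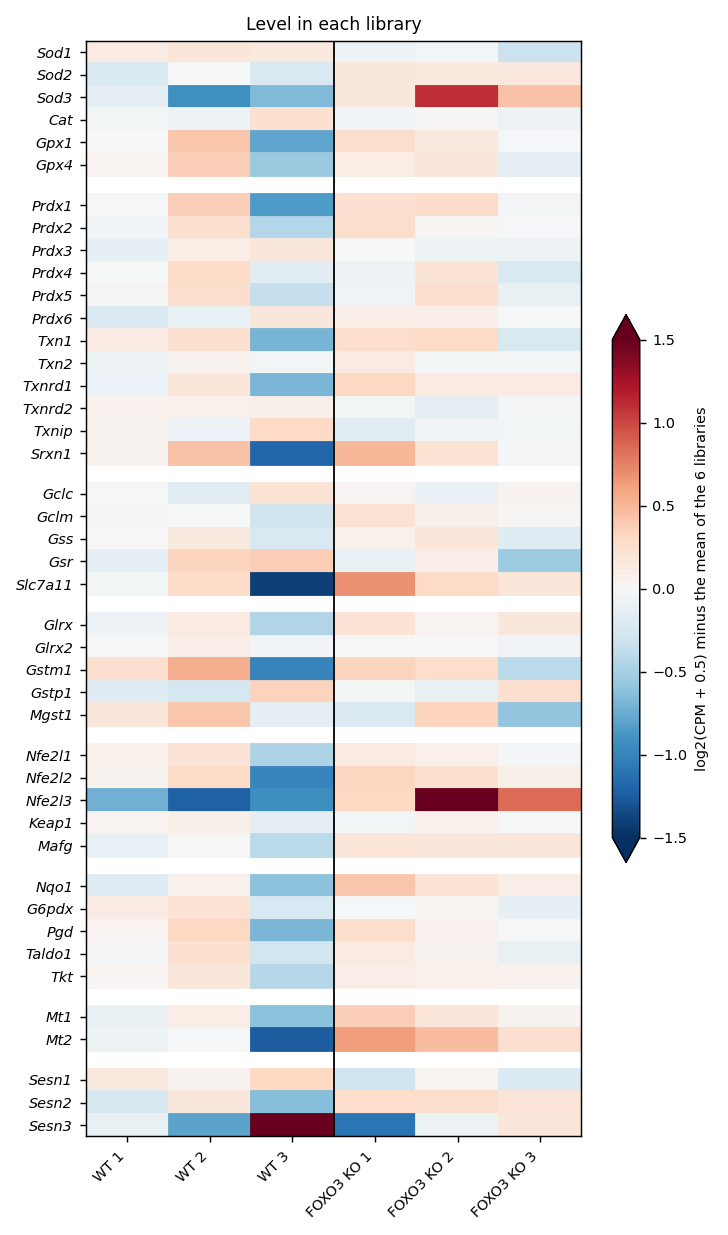
Level of each member in each library as log2(CPM + 0.5) less the mean over the 6 libraries, red for higher and blue for lower, in rows grouped by role, with the colour scale ending at 1.5 in either direction. The WT 3 column is blue for most members, with Slc7a11, Mt2 and Srxn1 among the darkest, while Sesn3 is dark red there, and the Nfe2l3 row is blue in WT and red in FOXO3 KO.

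A list of 37 other NRF2 targets went the same way in WT 3. Of its 32 genes tested, 24 were lowest in WT 3, with a median of -0.55 there. In the comparison of the groups 22 were higher and 10 lower in FOXO3 KO with all libraries, and 10 were higher and 22 lower without WT 3. Leaving out the library labelled FOXO3 KO 2 gave 18 higher and 14 lower. Hmox1, heme oxygenase, the best known of them, was at 256, 278 and 111 CPM in WT and at 274, 245 and 218 CPM in FOXO3 KO. WT 3 was low and the other libraries were alike, with a log2 fold change of 0.19 (SE 0.34), and of -0.11 (unadjusted p = 0.38) without WT 3. By edgeR's quasi-likelihood test 0 of the 32 passed the FDR limit and 1, Ggt1, had an unadjusted p under 0.05, where 5.68% of all genes tested did. Ggt1, which breaks down extracellular glutathione, was at 0.0831, 0.176 and 0.363 CPM in WT and at 1.13, 0.328 and 1.26 CPM in the libraries labelled FOXO3 KO 1, 2 and 3, with the second of these inside the WT range. The red blood cell and neutrophil markers were also higher in the first and the last of these libraries than in the second, and their part in the level of Ggt1 was not tested. Ggt1 had a log2 fold change of 2.11 (SE 0.70, unadjusted p = 0.023), and 2.5 (SE 0.60, unadjusted p = 0.0081) without that library. Ephx1, microsomal epoxide hydrolase, was at 48.7, 33.7 and 82.0 CPM in WT and at 18.8, 43.1 and 26.2 CPM in the same libraries, a log2 fold change of -0.90 (unadjusted p = 0.074), and of -1.28 (unadjusted p = 0.026) without the library labelled FOXO3 KO 2. Without WT 3, its highest library, the log2 fold change was -0.48 (unadjusted p = 0.21).

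**Figure D4:**
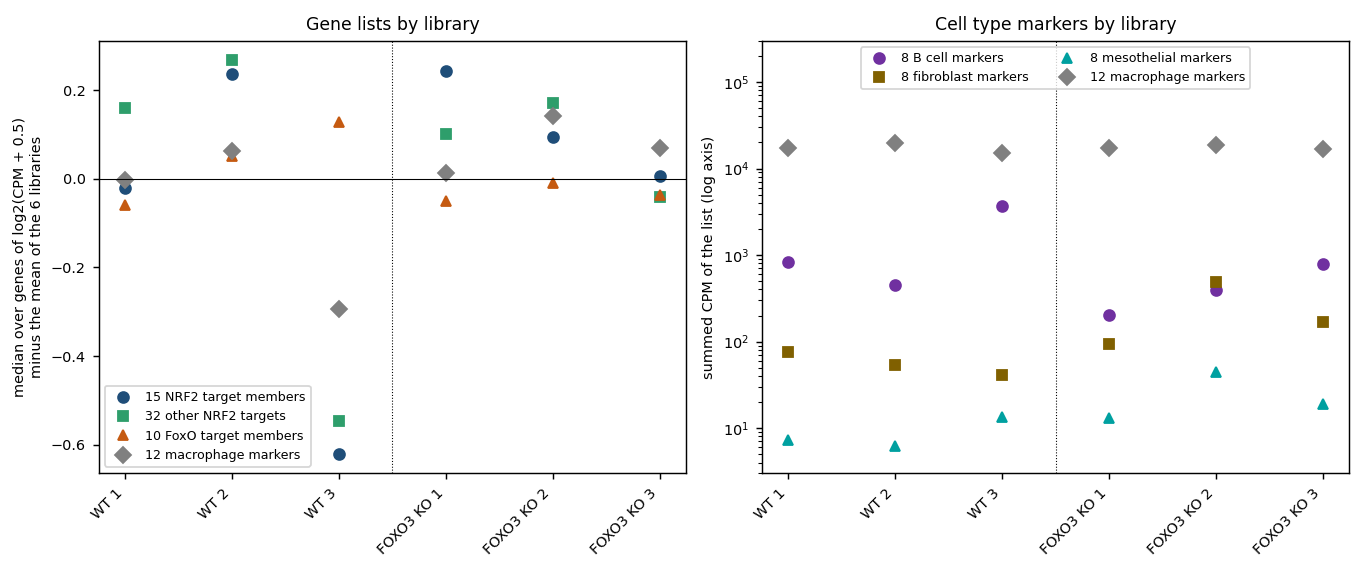
Left, the median over genes of log2(CPM + 0.5) less the mean over the 6 libraries, for 15 NRF2 target members, 32 other NRF2 targets, 10 FoxO target members and 12 macrophage markers in each library. Right, the summed CPM of 4 marker lists on a log axis; WT 3 is lowest for both NRF2 lists (-0.62 and -0.55) and highest for the B cell markers (3681 CPM), and the library labelled FOXO3 KO 2 is highest for the fibroblast markers (484 CPM).

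Of 29 other glutathione and selenoprotein genes tested, 24 were higher and 5 lower in FOXO3 KO and the median log2 fold change was 0.09, and without WT 3 there were 15 higher and 14 lower. By edgeR's quasi-likelihood test 0 passed the FDR limit, and 3 had an unadjusted p under 0.05, where 5.68% of all genes tested did. Of those 3, Gpx8, a peroxidase of the endoplasmic reticulum, and Msrb3, a methionine sulfoxide reductase, were higher. Gpx8 was at 0.140 to 0.609 CPM in WT and at 0.744, 2.63 and 0.899 CPM in the libraries labelled FOXO3 KO 1, 2 and 3, and Msrb3 at 0.353 to 0.499 CPM and at 0.531, 2.30 and 1.08 CPM. Both were highest in the library labelled FOXO3 KO 2, as the fibroblast markers were, and without it their unadjusted p values were 0.16 and 0.083. Gstt2, a glutathione transferase, was lower, at 13.5, 11.8 and 17.0 CPM in WT and at 8.01, 10.03 and 9.92 CPM in FOXO3 KO, without overlap. Its log2 fold change was -0.60 (SE 0.19, unadjusted p = 0.019), and -0.65 (unadjusted p = 0.037) without that library. Of 12 partners and inhibitors of the NRF factors, 6 were higher and 6 lower, with 0 past the FDR limit or at unadjusted p under 0.05 by the same test.

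The antioxidant response element was searched by its core letters TGACNNNGC on both strands of the same promoters. It stood in 12.4% of all promoters and in 12 of the 56 promoters (21.4%) of the 39 members in the table. The 12 members were G6pdx, Gclm, Mafg, Mgst1, Mt2, Nfe2l2, Pgd, Prdx1, Sesn2, Sod1, Srxn1 and Txnrd1. Of the 10 members in the table whose groups did not overlap, 5 held the core (Gclm, Mafg, Mt2, Sesn2 and Sod1), against 7 of the other 29. These last counts are of genes and not of promoters, have no share over all genes beside them, and were not tested. The 5 did not share a direction, since Sod1 was lower in FOXO3 KO and the others higher. The match and its neighbours are given for 7 members, 5′ to 3′ on the gene's strand with the core in capitals. They are the 5 just named, and Prdx1 and Txnrd1, which were lowest in WT 3 and whose groups overlapped. The core of Prdx1 begins 133 bases before the start (chr4:116685446-116685494, plus strand), and that of Txnrd1 92 bases before (chr10:82859094-82859142, plus strand). The core of Mt2 begins 79 bases before the start (chr8:94172519-94172567, plus strand), and that of Gclm 134 bases before (chr3:122245403-122245451, plus strand). The core of Sesn2 begins 36 bases before the start (chr4:132510464-132510512, minus strand), that of Mafg 222 bases before (chr11:120633741-120633789, minus strand), and that of Sod1 56 bases before (chr16:90220686-90220734, plus strand).
Prdx1: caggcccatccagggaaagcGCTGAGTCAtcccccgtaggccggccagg
Txnrd1: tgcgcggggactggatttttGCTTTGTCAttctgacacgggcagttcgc
Mt2: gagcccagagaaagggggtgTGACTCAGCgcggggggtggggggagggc
Gclm: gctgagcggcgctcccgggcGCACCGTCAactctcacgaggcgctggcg
Sesn2: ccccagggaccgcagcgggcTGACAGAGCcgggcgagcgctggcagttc
Mafg: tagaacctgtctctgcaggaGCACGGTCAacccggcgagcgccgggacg
Sod1: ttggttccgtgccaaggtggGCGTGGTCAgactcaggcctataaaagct

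In the Prdx1 and Mt2 stretches the core overlaps the letters TGACTCA or TGAGTCA, which also make an AP-1 site. The core of the metal response element, TGCACNC or TGCGCNC on either strand, was found in 15 of the 56 member promoters (26.8%), those of Mt1 and Mt2 among them, and in 25.7% of all promoters. A match describes the letters of a window and not the binding of a factor.

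The split of the libraries by Xist left 2 WT and 2 FOXO3 KO libraries on the low side and 1 of each on the high side. The difference of mean log2(CPM + 0.5), FOXO3 KO less WT, had the same direction on both sides for 29 of the 43 members. These include all 11 members whose groups did not overlap, for which the direction is fixed in advance. The share over all genes was not counted, so the number is given as a description. On the low side 23 of the 43 were higher in FOXO3 KO, and on the high side, which is WT 3 against the library labelled FOXO3 KO 3, 29 were. For Nfe2l3 the differences were 1.99 and 1.78, and for Sod2 they were 0.28 and 0.41. Sod1 was at -0.21 and -0.47, and Sesn1 at -0.23 and -0.55. For these 4 the groups did not overlap over all 6 libraries, which fixes 1 direction on both sides of any split, so only the sizes are informative. Nfe2l2 was at 0.10 on the low side and 1.09 on the high side, Srxn1 at 0.12 and 1.15, and Slc7a11 at 0.37 and 1.6.

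The libraries labelled FOXO3 KO 1, 2 and 3 lay within the WT range for 20, 28 and 26 of the 43 members. The same share over all genes was not counted, so these numbers are not read as a result about the members. Without both WT 3 and the library labelled FOXO3 KO 2, 8 members (18.6%) had an unadjusted p under 0.05, against 8.87% of all genes tested. They were Nfe2l3, Sod2, Mafg, Mt2 and Gstp1, which were higher in FOXO3 KO, and Sod1, Sesn1 and Mgst1, which were lower. Mgst1 had the largest downward value of the 3, with a log2 fold change of -0.69 (SE 0.16, unadjusted p = 0.0066). The median log2 fold change over the 43 members in that comparison was -0.02.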

How the data were processed

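Total RNA of peritoneal cells was sequenced from both ends on an Illumina NextSeq. The authors deposited estimated counts per gene symbol, without normalization, in which 81.4% of values lay within 0.01 of a whole number. The submitters' processing notes name STAR 2.6.1d, kallisto 0.46.0, DESeq2 and the build mm10, with no role or order, and the annotation is not given in the sources used here. For 25 of the 43 members at least 1 estimated count was not whole, so genes with near-identical copies depend on how reads were shared. Counts were rounded and tested with edgeR 4.0.16 (R 4.3.3) by the quasi-likelihood test after filterByExpr and TMM (factors 0.936 to 1.10), and p-values were adjusted by Benjamini-Hochberg across every tested gene. The DEG limits, fold change over 1.5 and FDR under 0.05, are those of the study. Each SE was taken as the absolute log2 fold change divided by the root of the F statistic. CPM uses the TMM-scaled library size, and levels per length use exon lengths of GENCODE M21.

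The members, the lists, the tests and the rule for named genes were chosen with earlier results of these data known. The rule gave per-library values to members past fold change 1.5 and unadjusted p under 0.05, with or without the library labelled FOXO3 KO 2, and to 20 members by name. Among the other pathway genes it named those past the same limits and Hmox1. Sod1, Mafg, Sesn2, Txnrd2, Gsr, Mgst1, Glrx and Hif1a were given such values after these had been seen. Alternatives were DESeq2 1.42.0, the likelihood ratio test, limma-voom (limma 3.58.1), other scalings and filters, a replicate block, each library left out in turn, and an Xist covariate. The count at unadjusted p under 0.05 and 3 combined settings were added once the data had been seen. The procedure was tested on simulated data. The 250 bases before and 50 after each start are RefSeq's, and for 50 of the 56 member promoters the bases after the start were found in a transcript of that gene.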

Additional observations from a re-analysis of the deposited data

How the results depend on the processing

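No member passed fold change over 1.5 at FDR under 0.05 by edgeR's quasi-likelihood test under any scaling, filter or covariate tried, or with any library left out, and limma-voom called 0 as well. The likelihood ratio test, DESeq2, and DESeq2 without the library labelled FOXO3 KO 2 each called 1. DESeq2 with an Xist covariate without that library called 4, with 2.35% of the 30848 genes it tested. The quasi-likelihood test did not call Foxo3 itself with all 6 libraries (FDR 0.859) or without the library labelled FOXO3 KO 2 (FDR 0.105). It did so with the Xist covariate and without that library (FDR 0.0054). Counts of members at fold change over 1.5 and unadjusted p under 0.05 ranged from 1 (without the library labelled FOXO3 KO 2) to 3 (without WT 2) as single libraries were left out, beside 2 with all. They were 4 with the Xist covariate, 6 with it and without the library labelled FOXO3 KO 2, 5 in DESeq2 with both, and 1 in DESeq2 without that library. Of all genes, 4.28% met these limits with all 6 libraries and 3.61% without the library labelled FOXO3 KO 2. No share over all genes is given for the other settings, so their counts are not read as a result about the members. At unadjusted p under 0.05 alone, leaving out single libraries gave 2 (without any one FOXO3 KO library) to 9 members (without WT 2, where 9.39% of all genes were at that level), beside 6 with all. The likelihood ratio test gave 3 (6.69% of all genes) and DESeq2 without the library labelled FOXO3 KO 2 gave 2 (3.10%). The Xist covariate gave 10 (10.3% of all genes), the same without that library 14 (14.5%), and DESeq2 with both 13 (7.31%). Each DESeq2 share is over every gene that DESeq2 tested, without the filter on low counts. The cause of these differences was not tested.

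Of the other pathway genes, 0 were called by the quasi-likelihood test. DESeq2 with the Xist covariate without the library labelled FOXO3 KO 2 called 4, where it called 2.35% of the 30848 genes it tested. At fold change over 1.5 and unadjusted p under 0.05 they numbered 2 to 5 as single libraries were left out, 9 with the Xist covariate without the library labelled FOXO3 KO 2, and 11 in DESeq2 with both. As for the members, no share over all genes is given for most of these settings. As single libraries were left out, members whose groups did not overlap numbered 8 to 16 higher (16, or 37.2%, without WT 2, against 14.3% of all genes). The lower ones numbered 3 to 5 (5, or 11.6%, without WT 1, against 9.17%). With library sizes that were not scaled there were 11 higher and 2 lower, and the groups of Sesn1 and Txnrd2 overlapped. No share over all genes was counted for that setting.

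Directions turned in 9 named genes, of which Sesn3 had the largest value with all libraries (-1.06). As libraries were left out, the log2 fold change of Nfe2l1 ranged from -0.082 to 0.23, Keap1 from -0.086 to 0.061, Gpx1 from -0.090 to 0.48, Prdx1 from -0.073 to 0.55, Prdx5 from -0.22 to 0.20, Cat from -0.15 to 0.030, G6pdx from -0.25 to 0.016, Hmox1 from -0.11 to 0.43 and Sesn3 from -1.48 to 0.19. Leaving out WT 3 turned all of these but G6pdx, which turned without WT 2, and leaving out the library labelled FOXO3 KO 2 turned Keap1 (-0.023) and Prdx5 (-0.078). With the Xist covariate and without WT 3, Nfe2l1 was at -0.024, Keap1 at -0.031, Cat at 0.050, Gpx1 at -0.0079, Prdx5 at -0.028 and Hmox1 at -0.029. In DESeq2 without the library labelled FOXO3 KO 2, Keap1 was at -0.017 and Prdx5 at -0.074, and Prdx5 was at -0.0039 with the Xist covariate without that library. Keap1 was at -0.0047 with library sizes that were not scaled.

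The replicate number as a block left 0 calls and gave 7 members at unadjusted p under 0.05, where 6.62% of all genes were at that level. Deviations from the group mean in samples of the same number correlated at 0.26, -0.07 and 0.52 across genes, and not every sample correlated best with its own number, so the numbers were not taken to pair the mice. With 3 libraries a group, of which 1 in FOXO3 KO held Foxo3 at the WT level and 1 in WT stood apart, a p above the limit does not show that a member was equal in both groups, and Sod3, Nfe2l3 and Nqo1 were measured at under 6 CPM in every library.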
